A study of Homo sapiens with 10 samples.

Results

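The 4 receptors of the epidermal growth factor family, EGFR, ERBB2, ERBB3 and ERBB4, were read from every probe set that the platform annotation gives to one of them alone. This gave 21 probe sets of 54613 on the array, 9 for EGFR, 3 for ERBB2, 5 for ERBB3 and 4 for ERBB4. A probe set is a group of short oligonucleotides whose signals are summarised to 1 value. The family was chosen by the microvesicle and cell values of EGFR on these same arrays, where it stood among the large rises. The receptor values are therefore a description, with no p-value.

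The arrays held RNA from microvesicles shed by K562 cells (5 arrays) and from K562 cells themselves (5 arrays). K562 is a human chronic myeloid leukaemia line with erythroid features that carries the BCR-ABL1 fusion, and all 10 arrays come from this 1 line with no other treatment named in the labels. Microvesicles are membrane particles that cells release into the medium with part of their RNA. Values are log2 expression values. No detection call comes with them, so a value near the array median (4.26 ± 0.022 in microvesicles and 4.10 ± 0.015 in cells, SD, n = 5 each) is not known to exceed background.

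EGFR and its 3 relatives are single-pass receptors with an intracellular tyrosine kinase domain. Ligand binding lets them pair, phosphorylate each other's tails and recruit adaptors that feed the RAS-ERK and PI3K-AKT routes. ERBB2 has no known ligand, ERBB3 has an impaired kinase and acts through its partners, and ERBB4 binds neuregulins. The family is best known from epithelia and carcinomas, and blood-forming cells are not a classic site of EGFR.

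EGFR lies on chromosome 7 (chr7:55019017-55211628, GRCh38.p14, RefSeq). RefSeq gives it 2 start sites, the second 90822 bases downstream of the first and inside the gene, so EGFR transcripts can differ in their first part. ERBB2 is on chromosome 17 (39688094 to 39728658), ERBB3 on chromosome 12 (56080108 to 56103505) and ERBB4 on chromosome 2 (211375717 to 212538802). The antisense gene EGFR-AS1 lies within EGFR (55179750 to 55188949), and 0 probe sets of the annotation table name it. The 250 bases before each EGFR start are shown, 5′ to 3′ on the plus strand, since they are where the transcripts with different first parts begin. Capitals in the first window mark the GC box, searched as GGGCGG on both strands. Capitals in the second window mark the TATA box, which was searched for, also on both strands, by the letters TATAAA.
First start, chr7:55018767-55019016: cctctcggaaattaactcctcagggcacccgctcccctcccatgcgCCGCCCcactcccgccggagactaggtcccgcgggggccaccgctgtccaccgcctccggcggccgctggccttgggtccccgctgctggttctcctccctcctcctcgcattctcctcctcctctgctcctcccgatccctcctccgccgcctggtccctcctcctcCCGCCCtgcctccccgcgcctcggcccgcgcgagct
Second start, chr7:55109589-55109838: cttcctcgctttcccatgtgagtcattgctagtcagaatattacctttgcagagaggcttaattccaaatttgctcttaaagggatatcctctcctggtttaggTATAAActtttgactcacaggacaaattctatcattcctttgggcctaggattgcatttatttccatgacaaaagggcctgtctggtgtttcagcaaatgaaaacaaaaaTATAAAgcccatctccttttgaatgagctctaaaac
The first window is 73.6% G or C and holds 2 GC boxes and 0 TATA boxes. The second is 38.8% G or C and holds 0 GC boxes and 2 TATA boxes. Over 35116 windows of the same length in the RefSeq table, the median was 58% G or C, 42.6% held a GC box and 10.7% a TATA box. A match of letters is a description and not a site. The sources used here do not place the probe sets on exons or UTRs, so it cannot be said from which start the RNA came.

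Of the 9 EGFR probe sets, 1565483_at and 1565484_x_at were far higher in microvesicles than in cells, by 3.05 ± 0.30 and 2.67 ± 0.25 on the log2 scale (8.28-fold and 6.35-fold, ± SE from the fit to all probe sets). Both were designed from the same sequence record, so they share a target and are not independent readings. The other 7 differed by 0.27 to 1.16. By size of rise the pair held ranks 27 and 39 of 54613.

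EGFR 1565483_at had log2 values of 6.47, 8.19, 7.48, 8.05 and 7.07 in microvesicles replicates 1 to 5, against 3.93, 4.61, 4.78, 4.58 and 4.11 in cells replicates 1 to 5. EGFR 1565484_x_at had 5.83, 6.94, 6.67, 7.05 and 7.42 in microvesicles, against 3.84, 4.19, 4.27, 4.12 and 4.15 in cells. In both probe sets every microvesicle array lay above every cell array, and replicate 1 was the lowest of the 5 microvesicle arrays. In cells 1565483_at was below the array median on 2 of 5 arrays and 1565484_x_at on 1 of 5, so the size of the difference in either has an uncertain lower end. The suffix _x_at marks a probe set with oligonucleotides that may also bind other sequences.

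EGFR 201984_s_at, designed from the RefSeq mRNA of the full-length receptor, had 4.02, 4.09, 3.49, 3.25 and 3.96 in microvesicles, against 2.49, 2.61, 2.39, 2.96 and 2.55 in cells. The groups did not overlap and the difference was 1.16 ± 0.20, but all 10 values were below the median of their array. EGFR 201983_s_at, for which the annotation table lists no record, had 2.57, 2.21, 3.53, 4.38 and 2.23 in microvesicles, against 2.0, 2.27, 2.01, 2.17 and 2.0 in cells. Its difference of 0.89 ± 0.35 came mostly from microvesicles replicates 3 and 4, and it was 0.54 without replicate 4. Of the 201983_s_at values, 4 of 5 in microvesicles and 5 of 5 in cells were below the array median.

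EGFR 211607_x_at had 5.41, 5.00, 4.72, 4.99 and 5.48 in microvesicles, against 3.92, 4.20, 3.97, 4.04 and 4.05 in cells, a difference of 1.08 ± 0.18. EGFR 211551_at had 4.69, 4.59, 4.01, 5.14 and 4.38 in microvesicles, against 3.39, 3.51, 3.49, 3.82 and 3.49 in cells, a difference of 1.02 ± 0.20. Neither overlapped between the groups. EGFR 211550_at had 4.83, 4.69, 4.95, 4.37 and 4.02 in microvesicles, against 3.90, 4.05, 3.85, 4.21 and 4.14 in cells, a difference of 0.54 ± 0.20 with overlap at replicate 5.

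EGFR 210984_x_at had 4.36, 4.23, 5.37, 4.38 and 4.49 in microvesicles, against 4.29, 4.08, 3.98, 4.13 and 4.41 in cells. Its difference of 0.39 ± 0.22 leaned on microvesicles replicate 3. EGFR 224999_at had 3.27, 2.81, 2.97, 2.0 and 3.30 in microvesicles, against 2.59, 2.74, 2.56, 2.63 and 2.49 in cells, a difference of 0.27 ± 0.23. Microvesicles replicate 4 was the lowest of all 10 arrays there, and all 10 were below the array median.

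**Figure D1:**
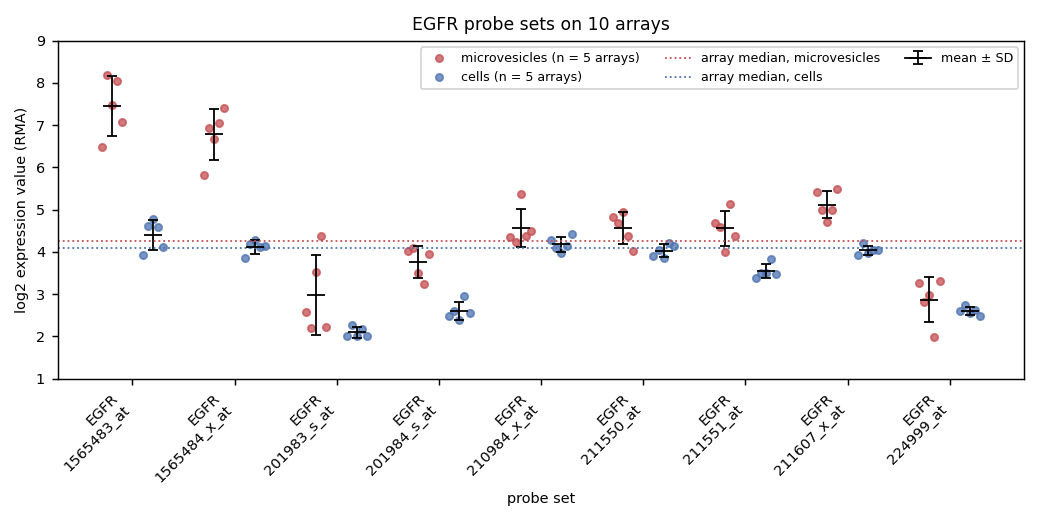
Log2 expression values (y axis) of the 9 EGFR probe sets (x axis) on 5 microvesicle arrays (red, left) and 5 cell arrays (blue, right), with mean ± SD in black and the array medians as dotted lines. Only 1565483_at and 1565484_x_at reach means of 7.45 and 6.78 in microvesicles, and the other microvesicle means lie between 2.87 and 5.12.

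In the limma fit, 7 of the 9 EGFR probe sets were higher in microvesicles at an adjusted p under 0.05, where 35.4% of all 54613 probe sets were, and 0 were lower, where 27% were. All 9 differences were above 0, which the choice of EGFR favours, so nothing is read from these counts. Groups did not overlap in 5 of the 9, each with the microvesicles higher, against 24% of all probe sets, while 22% had every microvesicle array lower. The median difference was 1.02 over the 9, 0.89 over the 7 outside the pair, and 0.27 over all probe sets. Probe sets with 7-digit numbers, as the pair has, were higher in 46.7% of 9921 cases and lower in 12%. Those ending in _x_at were higher in 32.8% of 4207 cases and lower in 23.6%.

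The values also depended on the scaling. After loess normalization by level, which removes a shift shared by probe sets of like level, 1565483_at stood at 3.66, 1565484_x_at at 3.01, 211607_x_at at 0.96, 211551_at at 0.74 and 201984_s_at at 0.68. These 5 were the EGFR probe sets past the threshold after loess, where 18.1% of all probe sets were higher and 21.6% lower. The same 5 passed with arrays centred on their median (23.9% of all higher and 30.2% lower) and after a second quantile normalization (18.8% and 18.5%). 224999_at turned to -0.28 after loess and -0.17 after quantile normalization, and 201983_s_at and 211550_at stood at 0.33 each after loess.

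ERBB2, the ligandless partner, had probe sets in both directions. ERBB2 216836_s_at had 5.12, 4.17, 4.73, 5.08 and 4.35 in microvesicles, against 5.30, 5.11, 5.21, 5.31 and 5.36 in cells, a difference of -0.57 ± 0.20. The microvesicle arrays spread more widely, and only replicate 1 overlapped the cells, whose lowest value was replicate 2. ERBB2 234354_x_at had 3.61, 3.40, 3.26, 3.89 and 3.50 in microvesicles, against 2.55, 2.97, 2.97, 2.72 and 2.79 in cells, a difference of 0.73 ± 0.17 without overlap, with all 10 values below the array median. After loess these stood at -0.51 and 0.24, and neither passed. ERBB2 210930_s_at ranged over 2.69 to 3.77 in microvesicles and 2.81 to 3.21 in cells, a difference of 0.21 ± 0.21 that was -0.29 after loess.

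ERBB3, the kinase-impaired partner, had the largest fall of the family in 226213_at. This probe set had 3.21, 4.39, 3.81, 1.93 and 2.96 in microvesicles, against 4.34, 5.13, 5.27, 4.70 and 5.05 in cells, a difference of -1.64 ± 0.37 (3.11-fold lower). Microvesicles replicate 2 was above cells replicate 1, so the groups overlapped, and 4 of 5 microvesicle arrays were below the array median where 0 of 5 cell arrays were. It stood at -1.91 after loess. ERBB3 202454_s_at, designed from the RefSeq mRNA, had 2.08, 3.89, 2.52, 3.25 and 4.28 in microvesicles, against 3.36, 3.73, 3.77, 3.43 and 3.22 in cells. The microvesicle arrays lay on both sides of the cells there, with a difference of -0.30 ± 0.35.

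ERBB3 215638_at had 3.61, 4.26, 3.45, 2.83 and 3.60 in microvesicles, against 2.56, 2.67, 2.72, 2.91 and 2.80 in cells, a difference of 0.82 ± 0.23 (0.32 after loess). Only microvesicles replicate 4 lay among the cells. The 2 other ERBB3 probe sets share a record and differed little. 1563252_at ranged over 4.32 to 5.84 in microvesicles and 4.55 to 5.03 in cells (0.29 ± 0.26), and 1563253_s_at over 4.75 to 5.27 and 4.93 to 5.11 (0.057 ± 0.16, and -0.10 with median centring).

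ERBB4, the neuregulin receptor, had 2 probe sets below the array median on all 5 cell arrays, and 2 above it on 4 of 5. ERBB4 214053_at had 3.14, 3.80, 3.32, 3.77 and 3.57 in microvesicles, against 4.44, 4.20, 3.99, 4.36 and 4.17 in cells, a difference of -0.71 ± 0.18 without overlap and of -1.03 after loess. ERBB4 206794_at, designed from the RefSeq mRNA, had 3.25, 3.92, 3.68, 2.53 and 4.94 in microvesicles, against 2.43, 2.89, 2.77, 2.87 and 2.82 in cells. Its difference of 0.91 ± 0.34 was 0.59 without microvesicles replicate 5, the highest array, and 0.43 after loess. The 2 ERBB4 probe sets that share a record did not pass, with 233494_at at 2.40 to 2.86 in microvesicles and 2.16 to 2.59 in cells (0.27 ± 0.16, -0.29 after loess) and 233498_at at 2.91 to 4.84 in microvesicles and 3.77 to 4.61 in cells (-0.32 ± 0.31, -0.58 after loess).

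**Figure D2:**
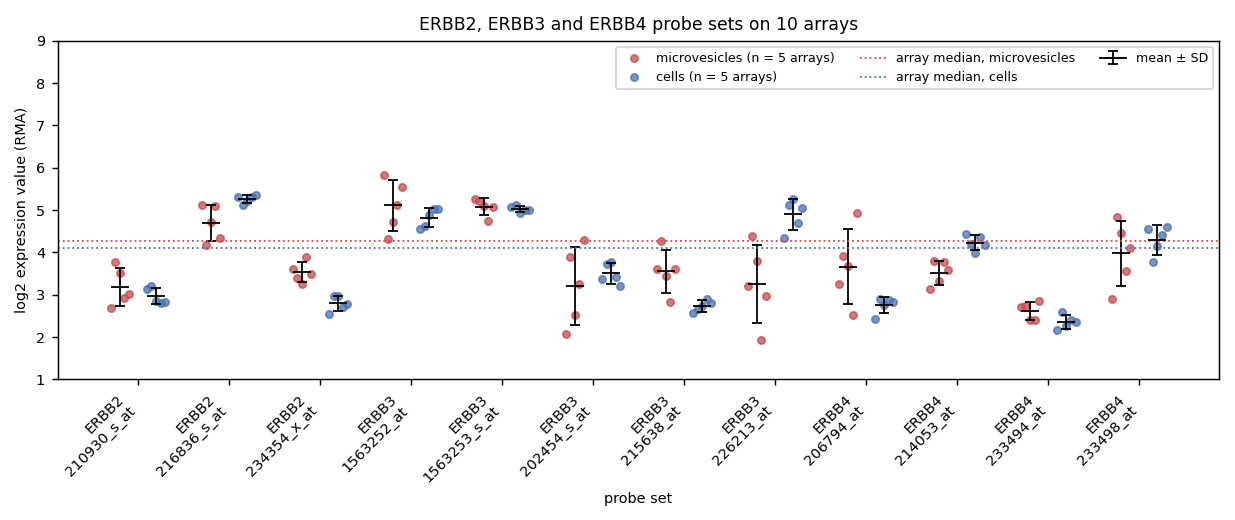
Log2 expression values (y axis) of the 12 ERBB2, ERBB3 and ERBB4 probe sets (x axis) on 5 microvesicle arrays (red, left) and 5 cell arrays (blue, right), with mean ± SD in black and the array medians as dotted lines. The means lie between 2.62 and 5.11 in microvesicles and between 2.35 and 5.26 in cells, and the groups are apart in 234354_x_at and 214053_at.

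Over these 12 probe sets, 3 were higher and 3 lower in microvesicles in the fit, against 35.4% and 27% of all probe sets, and their median difference was 0.14. After loess limma placed 0 higher and 2 lower, 226213_at and 214053_at. At an unadjusted p under 0.05 it placed 0 higher and 4 lower. Each of ERBB2, ERBB3 and ERBB4 had 1 probe set past the threshold in each direction in the deposited values. EGFR had its probe sets on 1 side, between 0.27 and 3.05. Whether EGFR differs from its relatives was not tested, since EGFR was chosen for its rise.

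**Figure D3:**
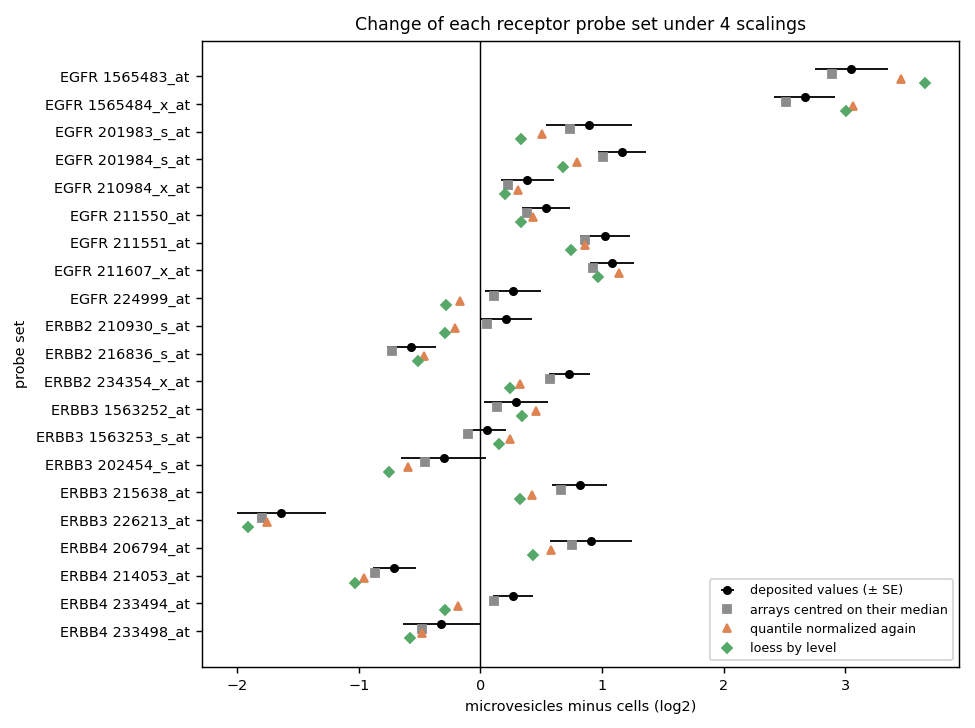
Microvesicles minus cells on the log2 scale (x axis) for the 21 receptor probe sets (y axis) in the deposited values (black, ± SE), with arrays centred on their median, after a second quantile normalization and after loess by level. The pair 1565483_at and 1565484_x_at stays between 2.51 and 3.66 in all 4, and 224999_at, 210930_s_at and 233494_at turn below 0 after quantile normalization and loess.

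Measures of the arrays differed between the groups as well. For the ACTB controls, the 3′ reading less the 5′ reading, which grows as fewer labelled fragments reach the 5′ end, was 3.12 ± 0.34 in microvesicles and 2.39 ± 0.15 in cells (SD, n = 5 each, 2-sided exact permutation p = 0.00794, the smallest possible, adjusted p = 0.00992 over 5 measures). The GAPDH difference was 0.62 ± 0.13 and 0.449 ± 0.064 (exact permutation p = 0.0159, adjusted p = 0.0159). The SD over an array was 1.93 ± 0.046 in microvesicles and 2.34 ± 0.016 in cells. The 18S rRNA controls averaged 10.55 ± 0.38 and 12.15 ± 0.26. These 2 and the array median each had exact permutation p = 0.00794 (adjusted p = 0.00992). Over probe sets with a mean of at least 6, none of them a receptor's, the median difference was -0.80, against 0.27 over all. Of the 12 erythroid and K562 markers measured, 5 passed as lower and 2 as higher in microvesicles, against 30.8% and 34.6% of 19775 genes. The markers' median difference was -0.58, or 0.27 after loess (1 lower and 3 higher, against 18.2% and 25.3% of all genes). Their mean level was 7.18 to 8.15 over microvesicle arrays and 8.03 to 8.30 over cell arrays. The transferrin receptor gene TFRC differed by -1.63 ± 0.17 and the erythroid factor GATA1 by -0.61 ± 0.16 (0.24 after loess). Of the 5 TFRC probe sets, 3 passed as lower and 1 as higher. The 2 markers that passed as higher were EPOR (0.79 ± 0.27) and CD36 (0.69 ± 0.19). EPOR had 2 of 5 probe sets higher and 1 lower, and CD36 missed the threshold after loess (0.32). The embryonic globin gene HBE1 averaged 12.09 ± 0.13 and 11.72 ± 0.32 (SD) and did not pass, but passed as higher after loess (0.63).

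Among markers of other cell types, 6 of 16 epithelial genes passed as higher and 3 as lower in microvesicles, and their mean level per array was 5.02 to 5.38 in microvesicles and 5.02 to 5.15 in cells. Fibroblast and endothelial markers had 9 higher and 0 lower of 12, all 12 with a difference above 0, at 4.53 to 4.98 in microvesicles and 3.77 to 4.05 in cells. Leukocyte and platelet markers had 8 higher and 1 lower of 12, at 4.50 to 4.81 and 4.22 to 4.56. Over all genes 34.6% were higher and 30.8% lower, and after loess 25.3% and 18.2%. After loess the epithelial list had 2 higher and 1 lower, and the fibroblast and endothelial list 7 and 0. The leukocyte and platelet list had 2 and 1. Of these lists 6, 5 and 6 genes had a microvesicle mean below the array median. The part of RNA integrity, of the spread of the arrays or of other cell types in the receptor values was not tested. In such bulk RNA, fewer vesicles with a transcript and less of it per vesicle cannot be told apart.

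Other genes of the pathway were read from 1 probe set each, the one with the highest mean over the 10 arrays, among 19775 genes. Of these 34.6% were higher and 30.8% lower in microvesicles (limma, adjusted p under 0.05 over all probe sets), with a median difference of 0.20. After loess 25.3% were higher and 18.2% lower. Ligands of the family had 3 higher and 2 lower of 9 measured. Epiregulin, EREG, a ligand of EGFR and ERBB4, fell most. It had 3.68, 3.57, 4.63, 3.50 and 2.59 in microvesicles, against 6.15, 6.72, 6.76, 5.92 and 6.90 in cells, a difference of -2.90 ± 0.32 (limma adjusted p = 7.0e-06) without overlap, and it was -2.80 after loess. EREG has a second probe set that did not pass.

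Neuregulin 1, NRG1, the ligand of ERBB3 and ERBB4, rose. Its probe set 208232_x_at had 6.56, 6.58, 6.76, 6.53 and 6.68 in microvesicles, against 5.05, 4.45, 4.88, 5.14 and 4.96 in cells, a difference of 1.73 ± 0.17 (limma adjusted p = 2.79e-06) that was 2.25 after loess. As with EGFR, the rise was not shared by every probe set, since 3 of 6 passed as higher and the mean over the 6 was 0.67. Betacellulin, BTC, rose by 1.13 ± 0.20 (limma adjusted p = 0.000373) at means of 2.99 in microvesicles and 1.86 in cells, both in the dim part of the array. HBEGF, which all 4 of its probe sets placed higher, rose by 0.64 ± 0.26 (limma adjusted p = 0.0463), and its groups overlapped. HBEGF missed the threshold after loess, without microvesicles replicate 2, 3 or 5, and without any 1 cell array. EGF itself differed by -0.63 ± 0.25 (limma adjusted p = 0.0392), with overlap, and missed it without microvesicles replicate 3, 4 or 5 or cells replicate 1, 2, 3 or 5. TGFA (0.25 ± 0.19), NRG2 (0.46 ± 0.31), NRG3 (0.46 ± 0.20) and NRG4 (0.18 ± 0.22) did not pass in the probe set read. Of their other probe sets, 2 of TGFA's 3 and 1 of NRG2's 3 passed as higher, and averaged over all their probe sets TGFA (0.74), NRG2 (0.40) and NRG3 (0.46, 1 probe set) passed. For AREG and EPGN no probe set is annotated with the gene alone.

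Among the proteases that release or process these ligands, 3 of 12 genes fell and 3 rose, with a median of 0.021. Over all genes 30.8% fell and 34.6% rose. ADAM10, the sheddase of EGF and betacellulin, had 7.24, 7.41, 6.62, 6.02 and 5.94 in microvesicles, against 10.05, 10.02, 10.01, 10.05 and 10.18 in cells, a difference of -3.41 ± 0.27 (limma adjusted p = 4.61e-07; -2.65 after loess). ADAM17, the sheddase of most other EGFR ligands, differed by -2.62 ± 0.24 and ADAM9 by -3.03 ± 0.25. All 3 probe sets of ADAM10 and of ADAM17 passed as lower, and 2 of 3 of ADAM9. ADAM15 rose by 0.50 ± 0.18 (1.37 after loess), but missed the threshold with median centring (0.34), with the mean of its probe sets (0.16) and without microvesicles replicate 2 or 3 or cells replicate 2 or 5. The other rises were BACE1 at 1.26 ± 0.19 and ADAM19 at 0.66 ± 0.19, which were named after their values were seen. ADAM19 missed the threshold after loess (0.29). Of its 2 probe sets, 1 passed as higher and 1 as lower, and the mean over them was -0.14.

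Among 29 adaptors and proximal effectors, 12 fell and 8 rose, against 30.8% and 34.6% of all genes. The median was -0.25, or 0.10 after loess (6 lower and 8 higher). The nucleotide exchange factor SOS2 differed by -2.53 ± 0.27, the focal adhesion kinase PTK2 by -1.97 ± 0.21 and the adaptor NCK1 by -1.96 ± 0.26. SOS2 had 2 other probe sets past the threshold as higher, and the mean of its 6 was -0.40. The adaptor genes SHC2 (0.96 ± 0.28), GAB2 (0.86 ± 0.22) and NCK2 (0.39 ± 0.16) rose. NCK2 stood at 1.18 after loess but missed the threshold with median centring (0.23), without microvesicles replicate 3, 4 or 5 and without any 1 cell array.

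Genes that take the receptors off the surface or restrain them had 16 falls and 6 rises of 28, against 30.8% and 34.6% of all genes. The median was -0.71 (-0.084 after loess, where 9 were lower and 4 higher). LRIG2, of a family of membrane proteins that regulate receptor kinases, differed by -2.07 ± 0.22, SOCS4 by -1.92 ± 0.22 and the feedback inhibitor SPRY2 by -1.89 ± 0.19. The endocytic adaptor EPN1 rose by 1.13 ± 0.26. In 7 of the 28 genes probe sets passed in both directions. LRIG2 was one of them, with 2 of its 4 probe sets lower and 1 higher, and a mean over them of -1.21. SOCS4 had 1 of its 2 probe sets lower, with a mean over both of -0.80.

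EGF-responsive target genes had 10 falls and 4 rises of 25, against 30.8% and 34.6% of all genes, with a median of -0.22. After loess 6 were lower and 5 higher, with a median of -0.097, and after quantile normalization 6 were lower and 6 higher. The early growth response gene EGR1 differed by -4.35 ± 0.24 and held 5.46 to 6.54 in microvesicles, against 9.86 to 10.87 in cells. The phosphatase gene DUSP1 differed by -2.44 ± 0.17 and FOS, a subunit of AP-1, by -2.33 ± 0.41. DUSP1 had 1 other probe set past the threshold as higher, and its mean over 3 was -0.44. ETV4 rose by 0.71 ± 0.20 (1.46 after loess), but did not pass with the mean of its probe sets (0.19).

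The other receptor tyrosine kinases, read the same way, had 28 higher and 6 lower of 51 and a median of 0.63, against 34.6% and 30.8% and 0.20 over all genes. After loess 18 were higher and 3 lower, with a median of 0.29. EPHA8, an ephrin receptor, had 6.10, 6.58, 6.11, 6.12 and 5.31 in microvesicles, against 3.97, 4.06, 3.98, 4.39 and 3.82 in cells, a difference of 2.0 ± 0.22 (limma adjusted p = 7.34e-06). That was the largest rise over all 151 probe sets of these kinases, and both probe sets of the EGFR pair exceed it in size, as their choice fixed. The ephrin receptor EPHB4 rose by 1.17 ± 0.29 and the fibroblast growth factor receptor FGFR4 by 1.42 ± 0.21. EPHA8 had 1 of 2 probe sets higher and FGFR4 2 of 4, with means over all of them of 1.23 and 0.60. The insulin receptor INSR differed by -1.55 ± 0.47, PTK7 by -1.18 ± 0.24 and ROR2 by -1.15 ± 0.26. After loess INSR (-1.04) and ROR2 (-0.51) missed the threshold, and all 3 missed it after quantile normalization. Averaged over all their probe sets, INSR (-0.32) and EPHB4 (0.53) missed it as well.

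**Figure D4:**
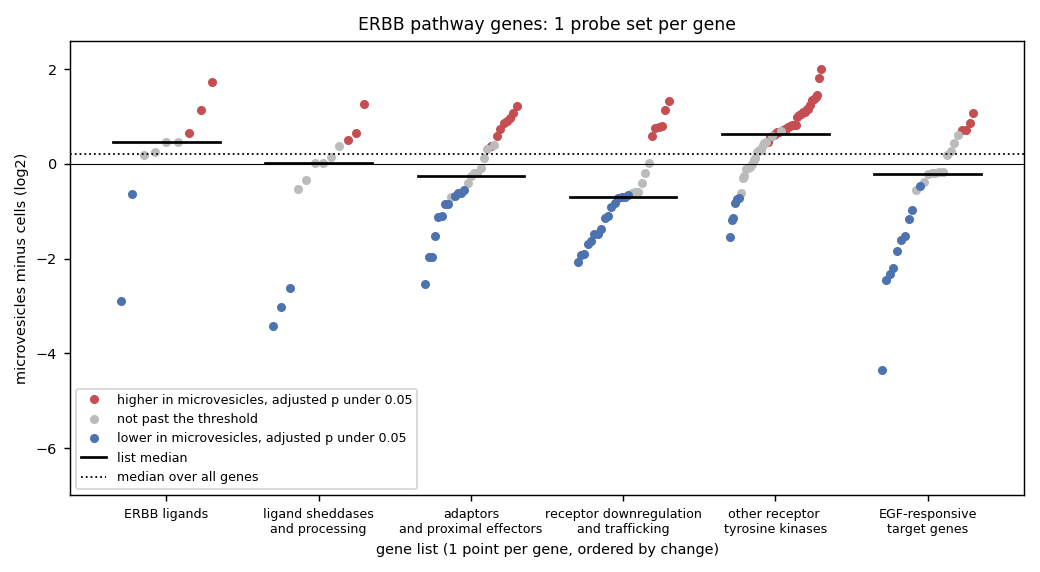
Microvesicles minus cells on the log2 scale (y axis) for the genes of 6 lists (x axis), 1 point per gene, coloured by whether the gene was higher (red) or lower (blue) at a limma adjusted p under 0.05, with the list median as a bar and the median over all genes (0.20) dotted. Medians run from -0.71 for receptor downregulation genes to 0.63 for the other receptor tyrosine kinases.

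The genes whose pattern over the 10 arrays was most like that of EGFR 1565483_at were PEX5L (r = 0.989), SOCS7 (0.987), TSR3 (0.987), RPL37A (0.986) and TNIP2 (0.986), as Pearson correlations given without a test. Each was higher in microvesicles in the probe set compared, by 1.47 for PEX5L, 2.36 for SOCS7, 2.10 for TSR3, 3.95 for RPL37A and 1.74 for TNIP2, so this likeness rests mainly on the difference between the groups. When each array's deviation from its group mean was compared instead, the most alike were ARHGEF19 (r = 0.967), ARHGEF11 (0.963), WBP1L (0.950), POU4F1 (0.944) and DCTN5 (0.942). POU4F1 lay lower in microvesicles, by -1.77.

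By the same deviations, 1565484_x_at had r = 0.59 with 1565483_at and the other 7 EGFR probe sets had r between -0.62 and 0.35 (n = 10 arrays). All probe sets of 1 array share its preparation and scaling. The arrays on which 1565483_at was brightest were microvesicles replicates 2 and 4, while those of 1565484_x_at were replicates 4 and 5.

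**Figure D5:**
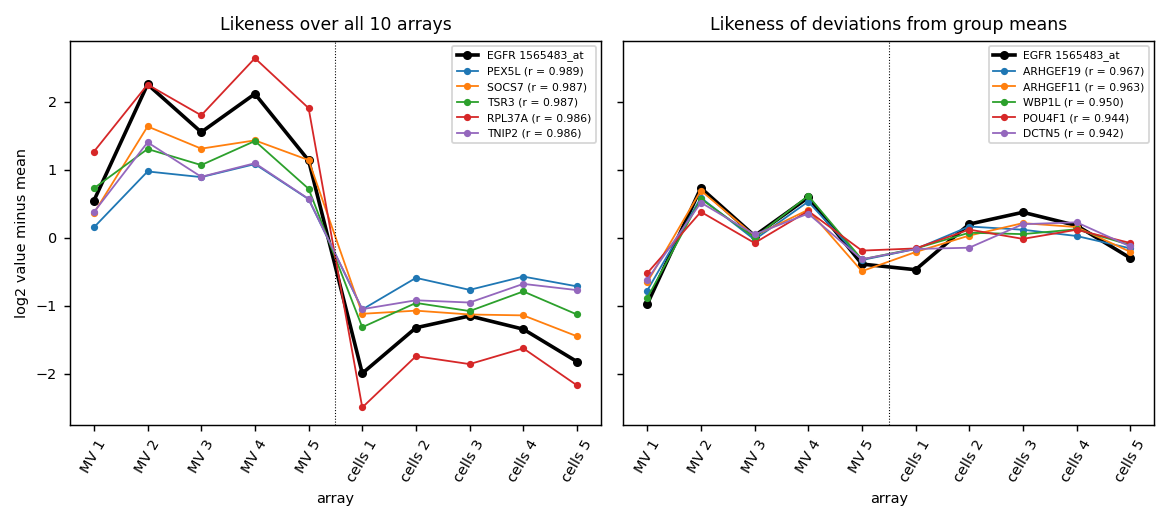
Log2 value minus the mean of all 10 arrays (left) or minus the group mean (right) on the y axis for EGFR 1565483_at (black) and the 5 genes most like it by each measure, over the microvesicle (MV) and cell arrays on the x axis. On the left all 6 lines drop between the groups, and on the right all 6 are lowest at microvesicles replicate 1.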

How the data were processed

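Per the labels' protocols, Trizol RNA from 5 independent experiments was turned into biotinylated cRNA for the arrays. The authors deposited 1 log2 value for each probe set, from RMA per the submitters' processing notes. RMA corrects background, equalises probe intensity distributions and summarises probes, but no source used here gives its version or settings. An overall difference in RNA amount is therefore not visible.

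Genes were taken from the platform annotation. For 41037 of 41091 single-gene probe sets the gene number was found in the RefSeq table, and its symbol was used. Microvesicles were compared with cells by limma 3.58.1 in R 4.3.3 (lmFit and eBayes, 1 mean per group, 2-sided) over 54613 probe sets without the 17 controls, with Benjamini-Hochberg adjustment over all of them and a threshold of 0.05. The labels name independent experiments but not separate cultures, and the p-values cover only the variation among the preparations. The number of arrays limits the precision. Changes are microvesicles minus cells ± SE. The fit was also run on simulated data with independent noise and few changed probe sets. The real arrays differ between groups in median and SD, so that run does not tell how the fit behaves on them.

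The receptors and the 10 gene lists were chosen with earlier results of these data known. Named were all receptor probe sets, all ligands, from each other pathway list the 3 largest rises and falls past the threshold with a group mean of at least 6, and the 5 genes most like EGFR by each of 2 measures. Additional named markers and receptors serve as context. Alternatives covered the replicate block, scaling, filters on dim probe sets, variance models, array weights, an exact rank sum test, gene means and leaving out each array.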

Additional observations from a re-analysis of the deposited data

Results flagged for a closer look

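In 108 groups of 5 arrays checked, 8 held an array far from the other 4 by Dixon's criterion, and chance gives about 1 in 20 groups. For the receptors, microvesicles replicate 3 was high in EGFR 210984_x_at (5.37, next 4.49), cells replicate 4 was high in EGFR 211551_at (3.82, next 3.51) and cells replicate 1 was low in ERBB4 206794_at (2.43, next 2.77). In the pathway lists, cells replicate 5 was high in ADAM10 (10.18, next 10.05) and FOS (6.81, next 5.93), microvesicles replicate 4 was high in EPN1 (7.21, next 6.09), cells replicate 4 was low in LRIG2 (6.41, next 6.94) and microvesicles replicate 1 was low in EPHB4 (4.97, next 6.44).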

How the results depend on the processing

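As a description, since EGFR was chosen by this contrast, 1565483_at, 1565484_x_at, 201984_s_at, 211551_at and 211607_x_at stayed higher in microvesicles under each alternative that included them. Values near or below the array median in one or both groups limit the size of the receptor differences, these 5 included. Quantile normalization, loess, the filter at the overall median and the filter at 6 left 10282, 9911, 5492 and 976 probe sets higher in all (deposited values 19318), and the filter at 6 left 7706 lower (14758). The filter at the overall median tested 5 EGFR probe sets, 4 of them higher (7 of 9 without it), and 3 of the ERBB2 to ERBB4 probe sets, 0 higher (0 unadjusted) and 1 lower, and the filter at 6 tested none of the 21. ERBB2 to ERBB4 also had 0 higher after quantile normalization (0 unadjusted) and loess. Reversed signs were those of 224999_at (-0.17 after quantile normalization, -0.28 after loess), 210930_s_at (-0.21, -0.29), 233494_at (-0.18, -0.29), 1563253_s_at (-0.10 with median centring), TGFA (-0.069 after loess), NRG3 (-0.087 after loess) and NRG4 (-0.22 after quantile normalization, -0.36 after loess). Among lists, quantile normalization left 1 ligand, 4 adaptors, 8 downregulation genes, 1 other kinase and 6 target genes lower, and 3 downregulation genes and 16 other kinases higher. Loess left 6 adaptors, 9 downregulation genes, 3 other kinases and 6 target genes lower and 18 other kinases higher. Centring left 5 adaptors higher, and the rank sum test 1 ligand lower. The filter at the overall median left 5 adaptors and 12 other kinases higher. The filter at 6 left 1 sheddase, 2 adaptors, 0 downregulation genes, 0 other kinases and 1 target gene higher and 2 other kinases lower. Averaging all probe sets of a gene placed 6 ligands higher and 3 other kinases lower. Filters test fewer genes by construction, and for the other settings the cause was not tested. Without 1 array each, 5 to 7 EGFR probe sets were higher, 2 to 3 ERBB2 to ERBB4 probe sets were higher and 2 to 3 lower. Of ligands 1 to 2 were lower, and 1 without microvesicles replicate 3, 4 or 5 or cells replicate 1, 2, 3 or 5, EGF being the one lost. Of adaptors 5 to 9 were higher, and 5 without cells replicate 1 or 2. EGFR 201983_s_at lost its call without microvesicles replicate 3 or 4 or any 1 cell array, and 211550_at without microvesicles replicate 1 or 3 or cells replicate 1, 2 or 3. ERBB2 216836_s_at lost it without microvesicles replicate 2 or 5 or cells replicate 1, 4 or 5, and ERBB4 206794_at without microvesicles replicate 2, 3 or 5 or cells replicate 1 or 3. EGFR 224999_at passed (0.49) without microvesicles replicate 4. With the replicate block 6 EGFR probe sets were higher (18708 of all), 211550_at losing its call. Same-numbered arrays deviated together with r between -0.025 and 0.11, and 3 of 5 microvesicle arrays correlated best with their own number. These values do not settle whether the numbers are pairs. The labels do not say that same numbers share a culture, so the main fit did not take them as pairs.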
